A study of Drosophila melanogaster with 8 samples.

Results

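The larval serum proteins, other larval fat body proteins and the yolk proteins are abundant products of the fly fat body, and their genes were followed here in RNA from dissected adult brains. Of the 23932 features in the deposited count table, 10 were taken by gene name. They comprised 7 genes of larval storage and fat body proteins (*Lsp1alpha*, *Lsp1beta*, *Lsp1gamma*, *Lsp2*, *Fbp1*, *Fbp2* and *Adh*) and 3 genes of adult yolk proteins (*Yp1*, *Yp2* and *Yp3*). These genes were chosen by their levels in EmcOE against Control brains in these same samples, so their differences between the groups are given here as a description, and no p-value is given for them. All brains came from *Drosophila melanogaster* adults of 0 to 1 day. Per the study's methods, males and females were pooled in equal numbers in every sample. EmcOE flies carried the driver *elavC155-Gal4*, active in neurons from embryonic stages, with the transgene *UAS-emc*. Control flies carried the same driver and came from a cross to the white* line (elavC155-Gal4xwhite*), so the groups differed in the line crossed as well as in Emc, and these cannot be told apart. The study calls the driver pan-neuronal, and its activity in fat body was not tested here. There were 4 samples per group, each from many pooled brains. Emc is an inhibitor of the transcription factor Daughterless (Da), and the study asked which genes respond when Da is inhibited in neurons.

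The fat body is the insect counterpart of liver and adipose tissue. In feeding larvae it secretes larval serum proteins (LSPs), hexamers of the hemocyanin superfamily, into the hemolymph. Before metamorphosis it takes LSPs back up, LSP1 hexamers through the receptor Fbp1, as an amino acid store for building the adult. The larval fat body persists as loose cells in young adults and then dies, while the adult fat body of females, together with ovarian follicle cells, makes the yolk proteins, relatives of lipases that are taken up by oocytes. Fat body tissue also surrounds the brain inside the head capsule. RNA of bulk tissue cannot tell a different number of fat body cells from a different level of RNA per cell.

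Total counts ranged from 20751513 to 41619980 per sample, and EmcOE replicate 1 was the deepest. Values below are normalized counts, with library sizes adjusted by the TMM method of edgeR, and 9788 features reached a group mean of 20 and were tested. *emc* itself had normalized counts of 6038, 6289, 5874 and 6020 in EmcOE replicates 1 to 4 and of 4951, 4786, 5165 and 4961 in Control replicates 1 to 4. Across all features, edgeR's quasi-likelihood test with Benjamini-Hochberg adjustment (adjusted p up to 0.05 and a log2 fold change of 0.2 or more either way) called 349 features upregulated (3.57%) and 501 downregulated (5.12%). With total counts in place of TMM the split was 413 up and 272 down.

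The position of each gene decides how much of it could be counted, since pairs were assigned without regard to strand. In the authors' annotation of build BDGP6.32, *Lsp1alpha* (X, 12490291 to 12492982), *Lsp1beta* (2L, 898500 to 901316), *Lsp1gamma* (3L, 66430 to 68995) and *Fbp1* (3L, 14094589 to 14098053) shared no exon base with another feature. The same was true of *Yp2* (X, 10050951 to 10052636) and *Yp3* (X, 13759546 to 13761547). *Fbp2* (2L, 9426784 to 9427917) shared 4.47% of its exon length with *CG42847*. *Yp1* (X, 10053811 to 10055498) lies beside *Yp2*, which is read in the opposite direction, and shared 54.3% with the antisense gene *asRNA:CR45601*. *Lsp2* (3L, 12129393 to 12131869) shared 84.6% with *asRNA:CR11538* and was left with 381 bases of its own, at its 3′ end.

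*Adh* (2L, 14615552 to 14618902), which encodes alcohol dehydrogenase, was the most affected. Of its 2254 exon bases, 93.9% also belong to *Adhr*, a related gene on the same strand that shares transcripts with *Adh*. The 138 bases that were *Adh* alone run from 14616129 to 14616266, between the first exon at the 5′ end and the exons that follow, all of which both genes share. *Adh* is known to have a distal promoter used mainly in adults and a proximal promoter used mainly in larvae. The 138 bases lie after the first exon, so the counts may not read the transcripts of both promoters equally. Which promoter's transcripts they come from was not tested. All 2116 exon bases of *Adhr* are also *Adh* bases, and *Adhr* had 0 counts in all 8 samples. *asRNA:CR45601*, whose 875 exon bases all lie in *Yp1* exons, also had 0 in all 8, and *asRNA:CR11538* had 1 count over all samples. Pairs that lay wholly in the shared bases were thus assigned to neither *Adhr* nor *asRNA:CR45601*, and the counts of *Adh*, *Lsp2* and *Yp1* rest mainly on the unshared part of each gene.

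**Figure D1:**
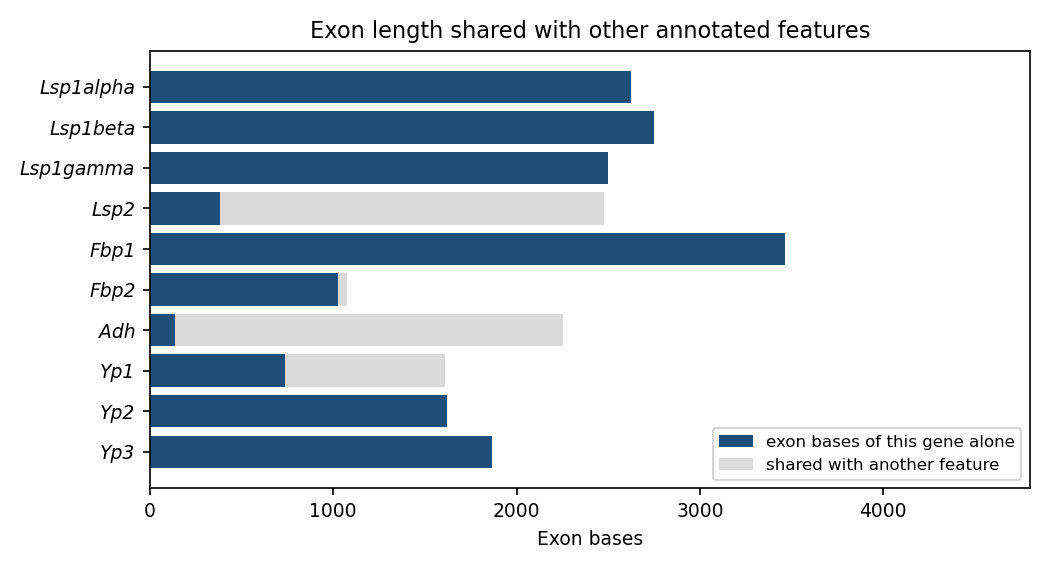
Exon bases of each of the 10 genes (horizontal axis, bases), split into those of that gene alone (blue) and those also annotated to another feature (grey). *Adh* kept 138 of 2254 bases and *Lsp2* 381 of 2477, while *Lsp1alpha*, *Lsp1beta*, *Lsp1gamma*, *Fbp1*, *Yp2* and *Yp3* kept all of theirs.

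Most of the larval genes stood higher in EmcOE brains, *Lsp1gamma* did not, and the yolk protein genes differed little in their means. All 10 genes passed the minimum of 20, *Lsp1alpha* through its EmcOE mean alone. The fitted log2 fold change was above 1 for 6 of the 7 larval genes, with a median of 1.34 over all 7, and the median of the 3 yolk protein genes was 0.018, beside a median of 0.013 over all features tested. The call rule was met by *Lsp1alpha*, *Lsp1beta*, *Fbp1*, *Fbp2* and *Adh*, which is 5 of 10 beside the 3.57% of all features upregulated. Every EmcOE sample lay above every Control sample for *Lsp1beta*, *Fbp1*, *Fbp2* and *Adh*, which is 4 of 10 beside 8.51% of all features, and 0 of the 10 lay the other way, beside 7.86%. Since the genes were chosen on this contrast, nothing is read from these counts.

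**Figure D2:**
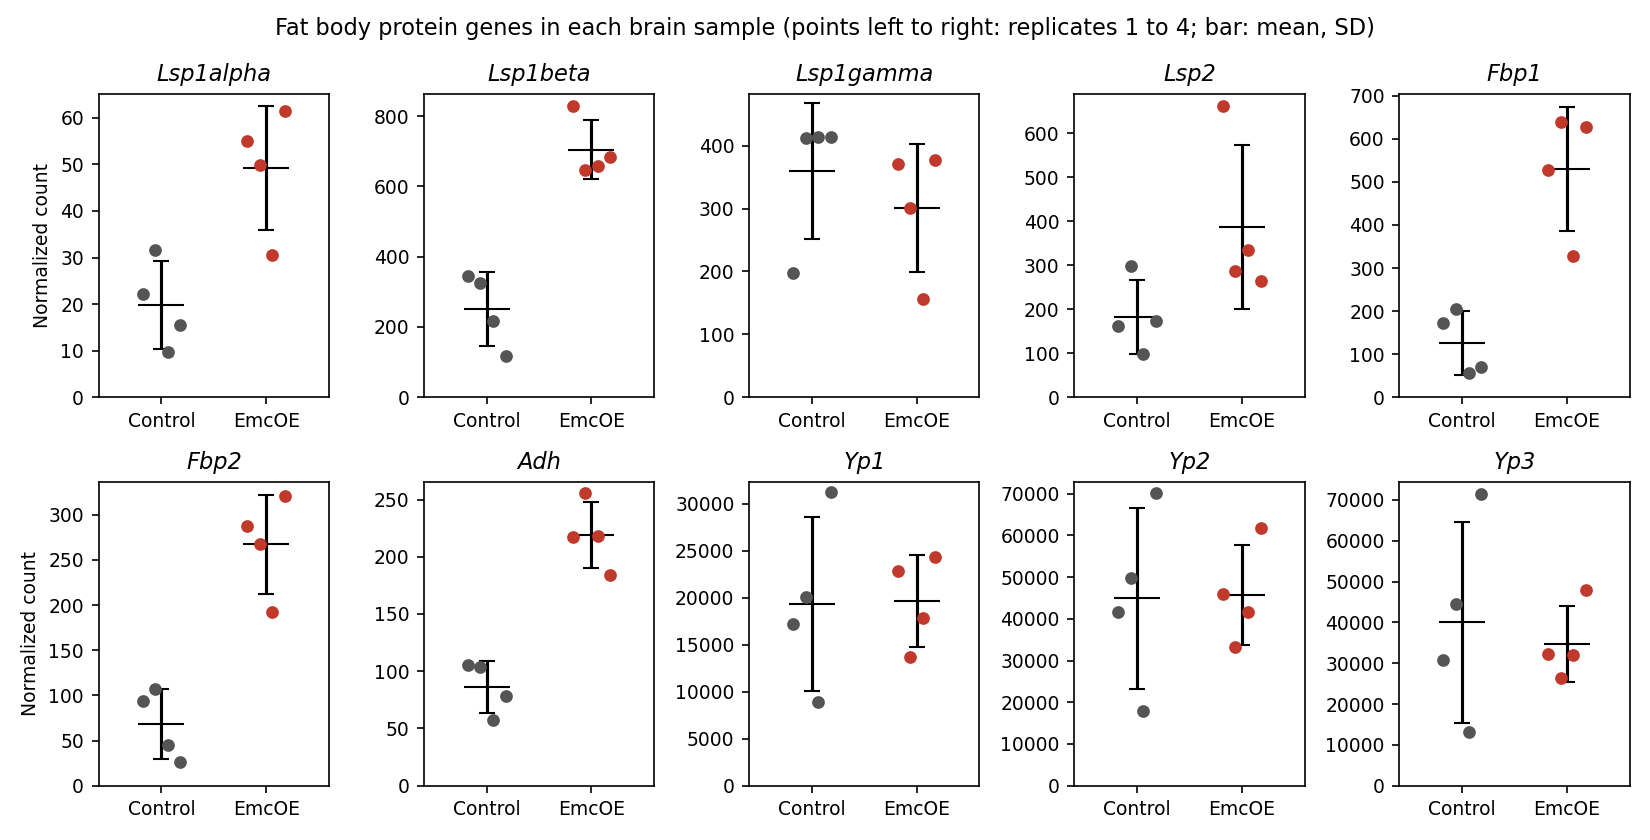
Normalized counts (vertical axes, each starting at 0) of the 10 genes in the 4 Control (grey) and 4 EmcOE (red) samples, with replicates 1 to 4 from left to right and the mean and SD in black. The groups stand apart for *Lsp1beta*, *Fbp1*, *Fbp2* and *Adh*, and they overlap for *Lsp1gamma* and for all 3 yolk protein genes.

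*Lsp1beta* encodes a subunit of the LSP1 hexamers and had the highest counts among the larval genes in EmcOE brains. Its normalized counts were 829, 648, 660 and 683 in EmcOE replicates 1 to 4 and 344, 325, 216 and 117 in Control replicates 1 to 4. The EmcOE samples were close together, the Control samples spread over 2.95-fold, and the groups did not overlap. The means were 705 ± 84.1 and 251 ± 105.5 (SD, n = 4), a log2 fold change of 1.49 (standard error 0.21), or 2.81-fold.

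*Lsp1alpha* encodes another LSP1 subunit and was the least abundant of the 10 genes. It had 55.1, 49.9, 30.5 and 61.5 normalized counts in the EmcOE samples and 22.1, 31.7, 9.72 and 15.5 in the Control samples. The lowest EmcOE sample, replicate 3, lay just below the highest Control sample, replicate 2. The log2 fold change was 1.31 (standard error 0.33), or 2.47-fold, from as few as 8 raw counts in Control replicate 3. With 1 sample left out it ranged from 1.09 (without Control replicate 3) to 1.62 (without Control replicate 2).

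*Lsp1gamma*, the remaining LSP1 subunit gene, went against the others. Its normalized counts were 370.5, 301, 157 and 377 in the EmcOE samples and 197, 411, 414 and 414 in the Control samples. Control replicate 1 was low and the other Control samples were nearly equal, and the groups overlapped. The means were 301 ± 102 and 359 ± 108 (SD, n = 4), and the log2 fold change was -0.25 (standard error 0.23). With 1 sample left out it ranged from -0.45 (without Control replicate 1) to -0.034 (without EmcOE replicate 3).

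The balance of the LSP1 subunit genes differed between the groups accordingly. *Lsp1gamma* counts were 0.45, 0.46, 0.24 and 0.55 times those of *Lsp1beta* in the EmcOE samples and 0.57, 1.26, 1.92 and 3.55 times in the Control samples. *Lsp1alpha* counts were 0.066, 0.077, 0.046 and 0.090 times those of *Lsp1beta* in the EmcOE samples and 0.064, 0.097, 0.045 and 0.13 times in the Control samples. The ratio of *Lsp1alpha* to *Lsp1beta* therefore overlapped between the groups, whereas all 4 EmcOE samples had less *Lsp1gamma* per *Lsp1beta* than any Control sample. The distance was small for the nearest samples, EmcOE replicate 4 and Control replicate 1. Both genes were chosen on this contrast, so these ratios are a description and nothing is read from their separation. The LSP1 genes are similar in sequence, and no sequence was used here to check how pairs that match several of them were treated.

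*Lsp2* encodes the subunit of the other larval serum hexamer. It had 663, 287.5, 336 and 264 normalized counts in the EmcOE samples and 162, 298, 97.2 and 174 in the Control samples. EmcOE replicate 1 was far above the rest, and Control replicate 2 was within the range of the EmcOE samples. The log2 fold change was 1.10 (standard error 0.29), and it was 0.68 without EmcOE replicate 1 and 1.44 without Control replicate 2. These counts came from the 15.4% of its exon length that is not shared.

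*Fbp1*, the receptor through which the larval fat body takes up LSP1, differed most among the 10 genes. Its normalized counts were 527, 639, 328 and 627 in the EmcOE samples and 171, 205, 57.1 and 70.2 in the Control samples. The lowest EmcOE sample was above the highest Control sample, and Control replicates 3 and 4 were the low ones. The means were 530.2 ± 144 and 126 ± 73.5 (SD, n = 4), a log2 fold change of 2.06 (standard error 0.29), or 4.17-fold.

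*Fbp2* encodes a fat body protein of the alcohol dehydrogenase family. It had 288, 267, 192 and 321 normalized counts in the EmcOE samples and 94.0, 107, 44.95 and 26.2 in the Control samples. The groups did not overlap, and within each group the samples spread over 1.67-fold (EmcOE) and 4.08-fold (Control). The log2 fold change was 1.96 (standard error 0.28), or 3.89-fold. The ratio of *Fbp1* to *Fbp2* was 1.97 ± 0.30 in EmcOE and 1.92 ± 0.58 in Control brains (SD, n = 4). The group means of this ratio were thus close, but it ran from 1.27 (replicate 3) to 2.68 (replicate 4) in Control brains. Both genes were chosen on this contrast, so the ratio is a description.

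*Adh*, the enzyme that oxidizes ethanol in larvae and adults, had 217.5, 255, 218 and 184 normalized counts in the EmcOE samples and 105, 104, 57.1 and 78.6 in the Control samples. The groups did not overlap, and this gene had the narrowest spread of the larval genes in Control brains, 1.84-fold. The log2 fold change was 1.34 (standard error 0.17), or 2.52-fold, and it was between 1.19 and 1.44 with 1 sample left out. These values rest on pairs that reach the 138 unshared bases and do not measure the whole *Adh* transcript.

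**Figure D3:**
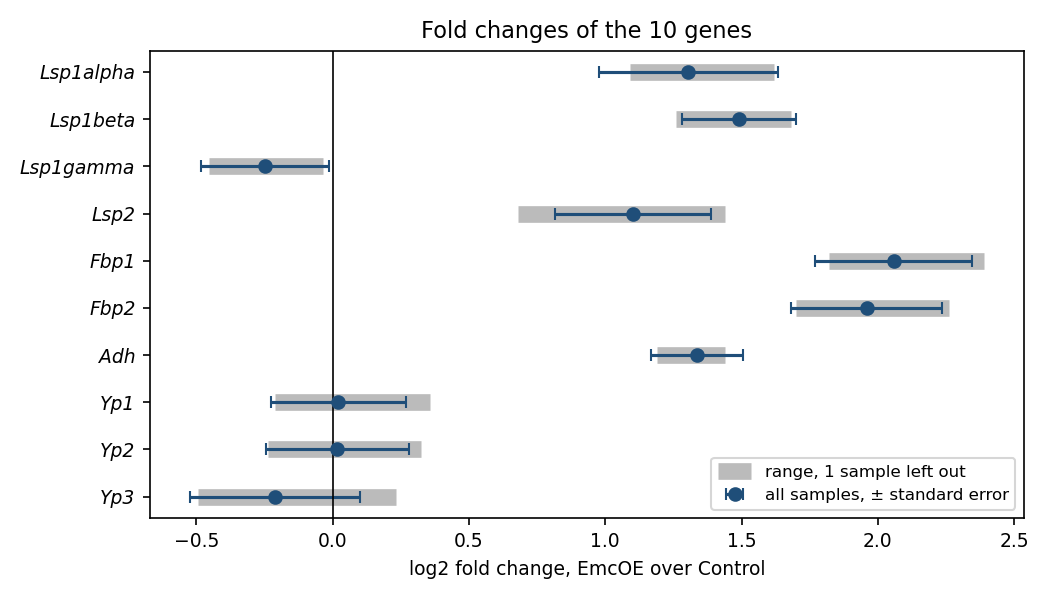
Log2 fold change of each gene, EmcOE over Control (horizontal axis), with its standard error (blue points and bars) and the range over the 8 models that left out 1 sample (grey). *Fbp1* (2.06) and *Fbp2* (1.96) lie farthest to the right, *Lsp1gamma* (-0.25) lies left of 0 in the full model, and the ranges of the 3 yolk protein genes cross 0.

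The yolk protein genes were far more abundant than the larval genes. Together they took 0.29% to 0.56% of all counts in EmcOE and 0.16% to 0.67% in Control brains, whereas the 7 larval genes together took at most 0.013%. Per kilobase of unshared exon, *Yp2* had the highest mean level (28190 normalized counts in EmcOE and 27760 in Control brains), followed by *Yp1* (26750 and 26290) and *Yp3* (18560 and 21410). In Control brains these differences between genes were smaller than the SDs over samples (13360 for *Yp2* and 13190 for *Yp3* per kilobase). Over its full exon length *Yp1* had 12220 in EmcOE and 12010 in Control brains, below *Yp3*. Its place in the order thus depends on the length used. Among the larval genes without shared exons, the order per kilobase in Control brains was *Lsp1gamma* (144), *Lsp1beta* (91.1), *Fbp1* (36.4) and *Lsp1alpha* (7.52), and in EmcOE brains it was *Lsp1beta* (256), *Fbp1* (153), *Lsp1gamma* (120.4) and *Lsp1alpha* (18.8). Neighbours in these orders overlapped within their spread for *Lsp1gamma* and *Lsp1beta* in Control brains (SDs of 43.3 and 38.4 per kilobase) and for *Fbp1* and *Lsp1gamma* in EmcOE brains (41.6 and 40.9). In Control replicate 1 *Lsp1beta* was above *Lsp1gamma*.

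*Yp1* had 22850, 13690, 17820 and 24370 normalized counts in the EmcOE samples and 17260, 20050, 8868 and 31220 in the Control samples. *Yp2* had 46010, 33170, 41560 and 61720 in the EmcOE samples and 41580, 49910, 17960 and 70210 in the Control samples. *Yp3* had 32330, 26310, 32090 and 47930 in the EmcOE samples and 30830, 44570, 13090 and 71490 in the Control samples. For all 3 genes Control replicate 3 was the lowest and Control replicate 4 the highest of the 8 samples, so the EmcOE samples lay inside the range of the Control samples. The log2 fold changes were 0.021 for *Yp1* (standard error 0.25), 0.018 for *Yp2* (standard error 0.26) and -0.21 for *Yp3* (standard error 0.31). All 3 were negative without Control replicate 3 (-0.21, -0.24 and -0.495) and positive without Control replicate 4 (0.36, 0.32 and 0.23), so the data give no direction for them.

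The proportions among the yolk protein genes varied less than their levels. *Yp1* supplied 18.2% to 22.6% of the yolk protein counts in the EmcOE samples and 17.5% to 22.2% in the Control samples. *Yp2* supplied 45.3% to 46.1% and 40.6% to 46.4%, and *Yp3* supplied 31.95% to 36.0% and 32.8% to 41.3%, with the highest *Yp3* share in Control replicate 4. Taken as deviations of log2 normalized counts from the group means over the 8 samples, which share their libraries and their depth, the yolk protein genes correlated with each other at r of 0.96 to 0.99. The 6 larval genes other than *Lsp1gamma* correlated with each other at r of 0.34 to 0.94 (median 0.61 over 15 pairs), with the highest values for *Lsp1alpha* with *Fbp1* and for *Lsp1beta* with *Fbp2*. *Lsp1gamma* had r between -0.40 and 0.23 with those 6 genes over both groups, and r within each group was not computed. In EmcOE replicate 3 *Lsp1gamma* (deviation -0.86) was low with *Lsp1alpha* (-0.63), *Fbp1* (-0.65) and *Fbp2* (-0.45). *Lsp1beta* (-0.088), *Lsp2* (-0.10) and *Adh* (0.0029) deviated little there. In Control replicate 1 *Lsp1gamma* was low (-0.80), while all of those 6 genes but *Lsp2* (-0.064) had positive deviations. *Lsp1gamma* was 5.13 to 6.73 times *Lsp1alpha* in EmcOE and 8.9 to 42.6 times in Control brains. Between larval genes other than *Lsp1gamma* and yolk protein genes r ranged from -0.33 to 0.57. Within groups, the larval genes and the yolk protein genes thus did not rise and fall as 1 block.

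**Figure D4:**
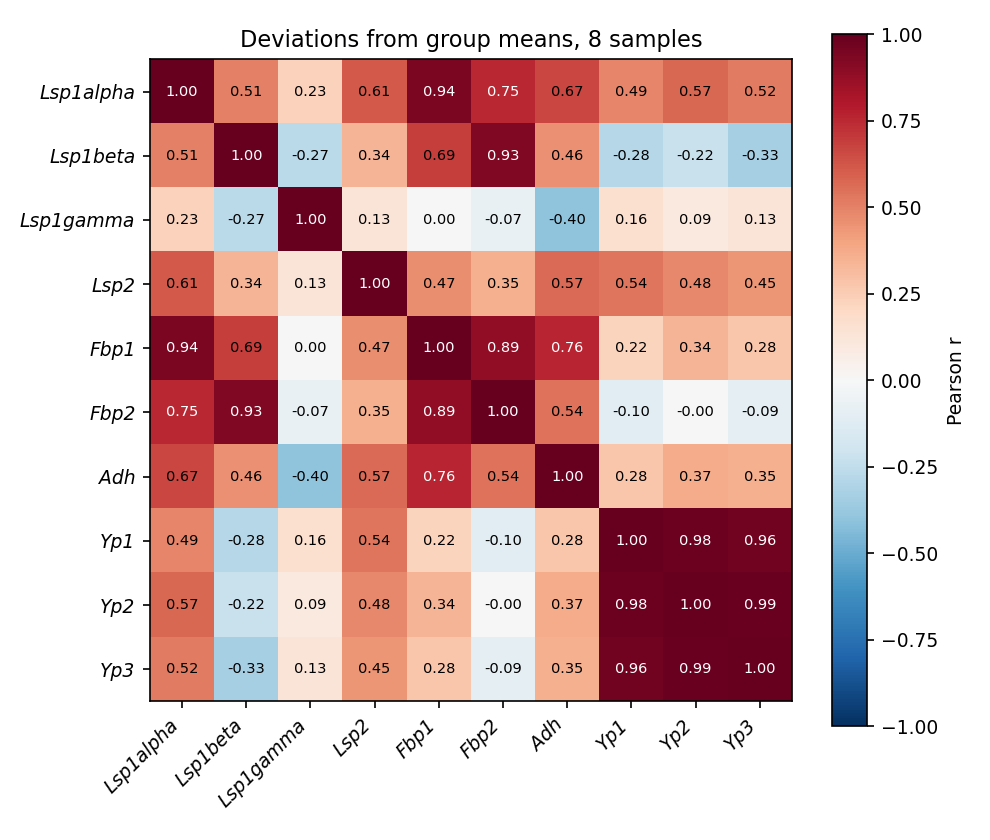
Pearson correlation (color and printed value) between the 10 genes, computed on deviations of log2 normalized counts from the group means over 8 samples. *Yp1*, *Yp2* and *Yp3* form a block of 0.96 to 0.99, and *Lsp1gamma* is at or below 0.23 with every other gene.

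In sums over the genes, the larval genes had 2949, 2448, 1920 and 2517 normalized counts in the EmcOE samples and 1095, 1482, 897 and 895 in the Control samples. The yolk protein genes had 101200, 73170, 91470 and 134000 in the EmcOE samples and 89660, 114500, 39920 and 172900 in the Control samples. The larval sums did not overlap between the groups, and the Control sums of the yolk protein genes spanned 4.33-fold, on either side of the EmcOE sums. For every 1000 yolk protein counts there were 29.1, 33.5, 21.0 and 18.8 larval counts in the EmcOE samples and 12.2, 12.9, 22.5 and 5.18 in the Control samples. Control replicate 3, where the yolk protein counts were low, reached the range of the EmcOE samples in this ratio. *Lsp1gamma* supplied 8.16% to 14.96% of the larval counts in the EmcOE samples and 17.98% to 46.3% in the Control samples. These sums and shares are of genes chosen on this contrast and are likewise a description.

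**Figure D5:**
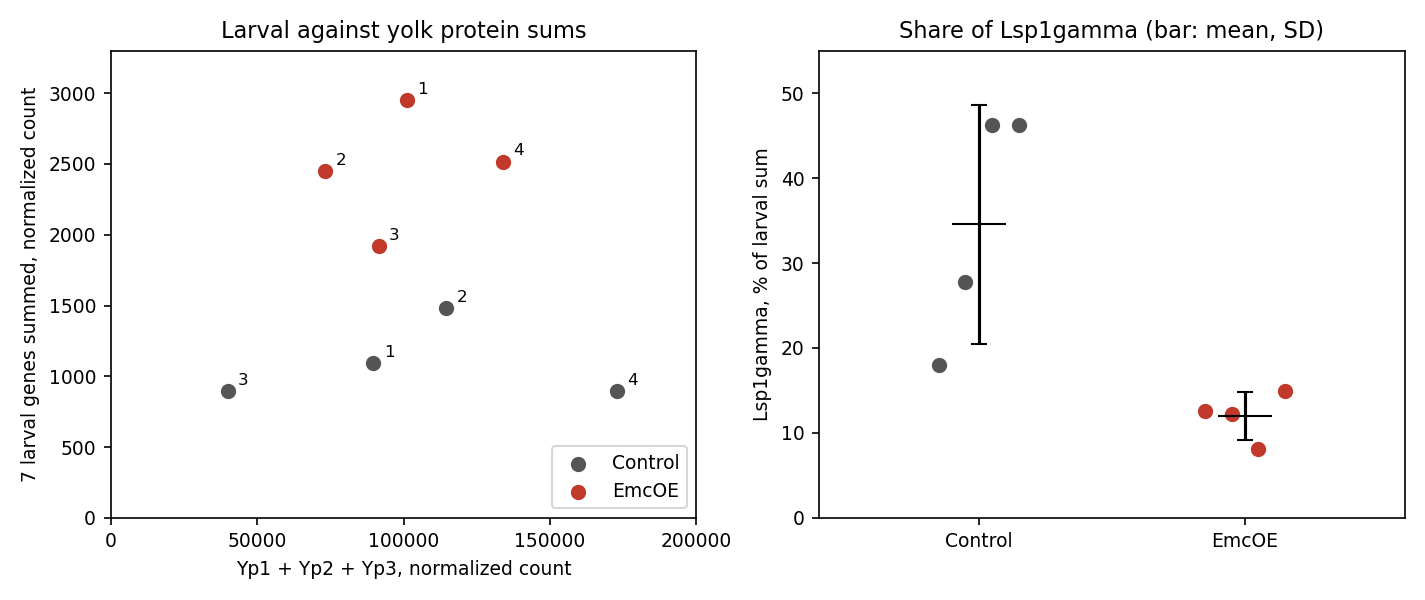
Left, summed normalized counts of the 7 larval genes (vertical axis) against those of *Yp1*, *Yp2* and *Yp3* (horizontal axis) in each sample, numbered by replicate. Right, *Lsp1gamma* as a percentage of the larval sum, with mean and SD. EmcOE samples (red) have larval sums of 1920 to 2949 and Control samples (grey) of 895 to 1482, with overlapping yolk protein sums.

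Other genes of the fat body went in both directions. Of 22 genes listed as adult fat body genes, 21 were tested, with 9 higher and 12 lower in EmcOE brains and a median log2 fold change of -0.060. Among the 21 genes 1 was upregulated and 3 were downregulated, beside 3.57% and 5.12% of all features. *Obp99b*, an odorant-binding protein gene expressed in fat body, was upregulated, with normalized counts of 718, 659, 561 and 781 in the EmcOE samples and 259, 296, 114 and 203.5 in the Control samples. Its log2 fold change was 1.64 (standard error 0.23, edgeR adjusted p = 0.0016), and it was called in all 14 alternative models. Downregulated were *Lsd-1*, a perilipin of lipid droplets (log2 fold change -0.40, edgeR adjusted p = 0.0079), the lipase gene *bmm* (-0.27, edgeR adjusted p = 0.0068) and the insulin-like peptide gene *Ilp6* (-0.33, edgeR adjusted p = 0.043). With total counts in place of TMM these 3 were no longer called, and *Ilp6* was called in 6 of 14 alternatives. *apolpp*, which encodes the main lipoprotein of the hemolymph, had 17970, 14910, 17470 and 25490 normalized counts in the EmcOE samples and 20980, 20300, 12420 and 27840 in the Control samples, with overlapping groups (edgeR adjusted p = 0.81).

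Some adult fat body genes varied between samples of the same group together with the yolk protein genes. In deviations from the group means over the 8 samples, the mean of the yolk protein genes had r of 0.96 with *apolpp*, 0.94 with *fit*, a female-specific fat body gene, 0.70 with *Obp99b* and 0.063 with the iron carrier gene *Tsf1*. It also had r of 0.78 with the muscle marker *Mhc* and 0.66 with the hemocyte marker *Hml*. The mean of the larval genes other than *Lsp1gamma* had r of 0.20 with *apolpp*, 0.41 with *fit*, 0.85 with *Obp99b*, 0.66 with *Tsf1*, 0.52 with *Mhc* and -0.031 with *Hml*. *fit* had 353, 355, 279 and 466 normalized counts in the EmcOE samples and 201, 479, 37.7 and 659 in the Control samples, lowest and highest in the same Control samples as the yolk protein genes. The part of these genes' sources in the differences of the larval genes was not tested.

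The yolk protein genes are active in females, so 9 sex genes were examined. Of these 0 were called, beside 3.57% of all features upregulated and 5.12% downregulated. Only the male-specific *roX1* and *roX2* bear directly on the makeup of the pooled samples, since counts per gene do not separate transcript forms of the others. The male-specific *roX1*, an RNA of dosage compensation, ranged from 11160 to 13200 normalized counts in EmcOE and from 10960 to 13470 in Control brains (edgeR adjusted p = 0.94). Its r was -0.24 with the yolk protein mean and -0.84 with the mean of the larval genes other than *Lsp1gamma*, over the deviations of the 8 samples. *roX2*, the other male-specific RNA of dosage compensation, had -0.23 and -0.40. *Sxl*, the switch gene of female development, had -0.19 and -0.82. *roX1* levels overlapped between the groups, and Control replicates 3 and 4, at opposite ends for the yolk protein genes, had 13240 and 13470 *roX1* counts. The female-specific *fit* had 37.7 and 659 normalized counts in Control replicates 3 and 4. The part of the sex makeup of the pools in the levels of these genes was not tested. Markers of ovarian follicle cells were near 0, with 1 of 9 reaching the minimum of 20 (*yellow-g*) and summed levels of 38.7 to 58.2 in EmcOE and 44.95 to 75.0 in Control brains.

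Markers of other cell types were as follows, beside 3.57% of all features upregulated and 5.12% downregulated. In lists of this size those shares give few calls, so nothing is read from a list with 0 called. All 6 neuronal markers were tested and 0 were called, with 5 higher in EmcOE brains and log2 fold changes with a median of 0.19 beside 0.013 over all features. Of 6 glial markers 2 were higher and 4 lower in EmcOE brains, and *Gs2* was downregulated (log2 fold change -0.27, edgeR adjusted p = 0.0070, not called with total counts). The summed glial list ranged from 63270 to 68280 in EmcOE and from 73650 to 76750 in Control brains, without overlap. Most of the glial sum was *Gs2*, with means of 40970 in EmcOE and 49430 in Control brains. Of 6 hemocyte markers 5 were tested, and *Hml* (-0.69, edgeR adjusted p = 0.0055) and *NimC1* (-0.48, edgeR adjusted p = 0.028) were downregulated, the latter in 10 of 14 alternatives. Of the 5, 4 were lower and 1 (*Pxn*) was higher in EmcOE brains, and the log2 fold changes had a median of -0.48. The hemocyte marker *He* stood at 0 to 11.9 normalized counts, and the summed hemocyte list ranged from 5592 to 6463 in EmcOE and from 5910 to 6511 in Control brains. Most of this sum was *Pxn*, with means of 5394 and 5130. Of the 6 muscle, 6 photoreceptor and 3 oenocyte markers tested, 0 were called. All 6 muscle markers were lower in EmcOE brains, with sums of 22140 to 33340 against 27350 to 41280. The photoreceptor sums were 469000 to 513500 in EmcOE and 491500 to 575500 in Control brains, and the oenocyte sums were 157 to 350 and 119 to 341. The part of these cell types in the differences of the 10 genes was not tested.

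Of 19 known regulators of these genes, 18 were tested, and 1 was downregulated and 1 upregulated, beside 5.12% and 3.57% of all features. *dsx*, the sex-determination factor that sets yolk protein expression, was lower in EmcOE brains, with 285, 322, 251 and 309.6 normalized counts against 411.5, 388.5, 315 and 420.2 in the Control samples (log2 fold change -0.40, edgeR adjusted p = 0.047). *br*, an ecdysone-response factor of metamorphosis, was higher (log2 fold change 0.33, edgeR adjusted p = 0.028). Their calls were not stable, in 6 of 14 alternatives for *dsx* and in 9 of 14 for *br*. *srp*, the GATA factor of fat body, had a log2 fold change of -0.35 (edgeR adjusted p = 0.082), and the ecdysone receptor gene *EcR* had 0.15 (edgeR adjusted p = 0.21).

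In alcohol metabolism, 7 of 8 genes listed beside *Adh* were tested. The calls of this list and of those that follow stand beside 3.57% of all features upregulated and 5.12% downregulated. *Fdh*, a formaldehyde and class III alcohol dehydrogenase, was upregulated (log2 fold change 0.30, edgeR adjusted p = 0.0058, called in all 14 alternatives), and *Aldh*, which oxidizes acetaldehyde made by Adh, was downregulated (-0.33, edgeR adjusted p = 0.020, called in 9 of 14). Among the 3 prophenoloxidase genes, members of the hemocyanin superfamily like the LSPs, *PPO2* was upregulated (0.48, edgeR adjusted p = 0.024). With the replicate number as a block it was not called, and neither was it without EmcOE replicate 3 or Control replicates 3 or 4. Of 4 tested genes for yolk and lipoprotein receptors and their chaperone, 0 were called.

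Most other genes of larval and pupal tissues had low counts. *Nplp2* was abundant, with mean normalized counts of 11480 in EmcOE and 14570 in Control brains. Of 15 such genes 3 were tested, and all 6 salivary glue genes (*Sgs1*, *Sgs3*, *Sgs4*, *Sgs5*, *Sgs7* and *Sgs8*) had means under 5 normalized counts in both groups. The larval cuticle gene *Lcp1* was downregulated, with 30.6, 20.2, 15.3 and 32.4 normalized counts in the EmcOE samples and 45.4, 136, 89.9 and 133 in the Control samples (log2 fold change -2.01, edgeR adjusted p = 0.0067). *Lcp1* thus went the opposite way to 6 of the 7 larval fat body genes (*Lsp1gamma* was the exception), and it was called in all 14 alternatives. The other tested genes of this list were not called and went opposite ways. *Edg91* was higher in EmcOE brains (log2 fold change 0.55, edgeR adjusted p = 0.25), and *Nplp2* was lower (-0.34, edgeR adjusted p = 0.29).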

How the data were processed

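Per the labels, RNA came from brains of EmcOE and Control flies, 4 samples each with replicates numbered 1 to 4. The deposited values are raw counts of read pairs per feature: the authors trimmed reads with BBDuk, mapped them to BDGP6.32 with STAR (2.7.4a) in 2 passes and counted pairs without strand with featureCounts (2.0.1). The counts came from unstranded poly(A) libraries. The deposited table also gives exon coordinates and exon lengths.

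The versions were R 4.3.3, edgeR 4.0.16, limma 3.58.1 and DESeq2 1.42.0. Normalized counts are counts over the effective library size, times its mean. Features with a mean of at least 20 in a group entered edgeR's quasi-likelihood test with no covariate. Log2 fold changes of the 10 genes came from the same model on all features with a count, and each standard error is the size of the fold change over the square root of F. A pseudocount of 0.5 was used for correlations. The study's methods describe the samples of a group as biological replicates of pooled brains. Within a group, a chi-square test per pair of samples gave 14 to 92 per degree of freedom, so no pair agreed within sampling noise and all 8 samples were kept.

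The 10 genes and all gene lists were chosen with earlier results of these data known. Named besides the 10 are *emc*, overlapping features, list genes that were called and the 5 features that varied most like each class; other list genes are named after their values were seen. Alternatives were DESeq2, other normalizations and minimum counts, the replicate block and leaving out each sample. In simulated counts for this comparison (9668 features), 148 of 200 altered features were called (56% at a log2 change of 0.5, 92% at 1), beside 7 unaltered ones. Promoter and protein sequences were not used here.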

Additional observations from a re-analysis of the deposited data

Results flagged for a closer look

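In 20 groups of 4 samples (10 genes in each of EmcOE and Control), 1 sample stood far enough from the others to exceed the critical value of Dixon's gap test. This was *Lsp1gamma* in Control replicate 1, with a normalized count of 196.9 beside 411, 414 and 414 in the other Control samples. Chance gives about 1 such group in 20. Without this sample the log2 fold change of *Lsp1gamma* was -0.45 in place of -0.25. *Lsp2* in EmcOE replicate 1 (663) and *Lsp1beta* in EmcOE replicate 1 (829) came close to that value.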

How the results depend on the processing

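The median log2 fold change of the larval genes was between 1.19 and 1.62 in all 12 models that gave new fold changes, and that of the yolk protein genes between -0.24 and 0.32. These genes were chosen on this contrast, so the ranges describe the choice of samples and settings and support nothing. Of the 10 genes, 4 to 6 met the call rule, from which nothing is read. The replicate numbers are shared between the groups, but same-numbered samples did not deviate together (correlations of -0.49, 0.15, 0.032 and -0.21 for replicates 1 to 4). With the replicate number as a block, 326 features were upregulated and 487 downregulated. With total counts in place of TMM, 272 features were downregulated, and the median of all features moved from 0.013 to 0.081. With 1 sample left out, 204 (without Control replicate 2) to 465 features were upregulated and 323 to 513 downregulated. Upregulated features fell to 229 without Control replicate 1. Of the adult fat body list, 7 genes were called with DESeq2 and 1 with total counts, against 4. The causes of these shifts were not tested. Depth limits *Lsp1alpha*, with 8 to 99 raw counts per sample.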

Other observations

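Some other features varied from sample to sample much as these genes did. For the mean of the 7 larval genes, taken as deviations from the group means over 8 samples, the most alike of 9611 features were *CG31344* (r = 0.98, rho = 0.95), *Ugt302K1* (r = 0.98, rho = 0.95), *GstE3* (r = 0.97, rho = 0.98), *Idi* (r = 0.96, rho = 0.88) and *flz* (r = 0.96, rho = 0.93). *Ugt302K1*, a UDP-glycosyltransferase gene, was downregulated in EmcOE brains (log2 fold change -0.998, edgeR adjusted p = 0.0021), and the other 4 were not called. For the mean of the yolk protein genes they were *Iris* (r = 0.98, rho = 0.98), *Elal* (r = 0.98, rho = 0.95), *CG16743* (r = 0.97, rho = 0.98), *Agpat4* (r = 0.97, rho = 1.00) and *PGRP-SD* (r = 0.97, rho = 0.91). *PGRP-SD*, a secreted peptidoglycan recognition protein of the immune response, had a mean normalized count of 53.2 in EmcOE and 191 in Control brains (log2 fold change -1.84, edgeR adjusted p = 0.0013), and the other 4 were not called. These are the highest of many correlations over few samples and are given as a description.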
